A study of Mus musculus with 4 samples.

Results

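The 47 DNA replication and S-phase genes described here encode the proteins that license replication origins, unwind and copy DNA, supply nucleotides and drive cells into S phase. They were taken by name from a list chosen with earlier results of these data known, so shares set beside all features are descriptions. They are 47 of the 50090 gene names on the array. Of these, 44 matched the array's own gene names and 3 (Orc1, Orc2 and Orc6, carried on the array under older symbols) matched through their RefSeq accession. They are read by 63 probes, of which 62 were well above background on all 4 arrays and 1, the dimmest of 3 Cdc7 probes, on no array. Each gene is given by its brightest probe, and all 47 passed the filter on dim probes on every array, so none entered the test through only one group.

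Before S phase, the origin recognition complex, Cdc6 and Cdt1 load the ring-shaped MCM helicase onto DNA, and geminin blocks Cdt1 once S phase has begun. The kinase Cdc7 with its partner Dbf4 and the GINS complex then turn the loaded rings into active helicases, polymerase alpha with primase starts each strand, and polymerases delta and epsilon extend it on the PCNA clamp. Many of these genes are E2F targets that are switched on together at the G1 to S boundary, so in a growing fibroblast culture their RNA is commonly read as a sign of how many cells are in or near S phase.

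The cells were C3H10T1/2, a line of immortalised fibroblasts from mouse embryos in which chemical transformation is scored in culture. On the 2 3MC+TPA arrays RNA came from cells given 3-methylcholanthrene (3MC, a polycyclic hydrocarbon carcinogen) at 2.5 µg/ml for 2 days, then the phorbol ester TPA (12-O-tetradecanoylphorbol-13-acetate, which promotes tumours) for 2 weeks at 100 ng/ml, then no agent for 4 weeks. The 2 control arrays held RNA of the same line kept for 6 weeks with neither agent, and the labels do not say whether these control cells received the solvents. Both groups grew in the same serum-containing medium, and nothing in the labels says that foci were isolated from the exposed flasks before RNA was taken. The design text speaks of hybridisation in duplicate, and whether a group's arrays represent separate cultures is not stated. P-values therefore reflect nothing but the spread among these arrays, and that spread may be technical. The 4 arrays share 1 slide and 1 scan, and array position and group cannot be told apart.

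Each array carried 61657 non-control spots, of which 32222 and 32512 were well above background on the 3MC+TPA arrays and 32125 and 32415 on the control arrays. Throughout, a level is the relative log2 signal, the processed signal divided by the array's 75th percentile, as a log2 value, and a change is the mean of the 3MC+TPA arrays minus the mean of the control arrays on that scale. Errors beside a change are standard errors of a limma fit to the 2 arrays of each group, and p-values are adjusted over all features tested. Levels of different genes come from different probes and are not compared. The fibroblast label was checked with markers, and all 9 of 9 were well above background on all 4 arrays. Of 6 epithelial markers, 3 (Krt5, Krt14 and Krt8) were well above background on all 4 arrays and 2 (Cdh1 and Krt18) on none. Of 6 leukocyte markers, 2 (Cd68 and Cd3e) were so on all 4 arrays and 4 (Ptprc, Emr1, Itgam and Cd79a) on none. Of 4 endothelial markers, 3 (Pecam1, Cdh5 and Kdr) were so on none, and Tek on the 3MC+TPA arrays alone.

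The 2 control arrays stood apart from each other in these genes. All 47 of 47 replication genes had a lower signal on control array 1 than on control array 2, against 45.4% of all 24976 features tested. The median difference, control array 1 minus control array 2, was -0.67 on the log2 scale (range -1.19 to -0.04), against 0.03 over all features. For 35 of the 47 (74.5%) the gap exceeded 0.5, which was the case for 7.87% of all features. The 2 3MC+TPA arrays lay close together: array 1 minus array 2 had a median of 0.03 (range -0.56 to 0.43), and 1 of 47 genes (2.13%), Mcm5, was apart by more than 0.5, against 13.1% of all features. The change of each larger gene group below is therefore also given against each control array alone, as a description with no test.

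**Figure D1:**
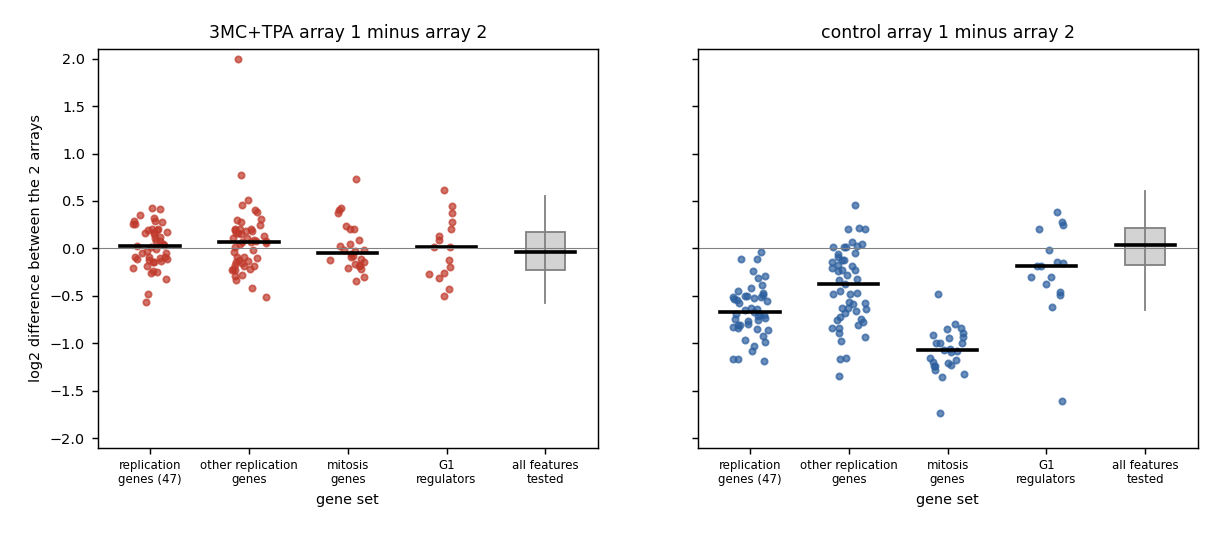
Difference in log2 signal between the 2 arrays of a group, for each gene of 4 gene sets (points, with the set's median as a bar) and for all features tested (box from the 25th to the 75th percentile, line from the 5th to the 95th, median as a bar). The left panel is 3MC+TPA array 1 minus array 2, the right panel control array 1 minus array 2. The 47 replication genes centre on 0.03 in the left panel and on -0.67 in the right, where all lie below 0. The point at 2.0 in the left panel is Pole4, drawn at the edge of the scale (its difference was 6.94).

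The 47 replication genes had a median change of -0.74 on the log2 scale, 3MC+TPA minus control, against -0.01 over all features tested, and 4 of them passed the test. The change was negative for 45 of 47 genes and positive for E2f2 and Rpa1. Those 4 (8.51%), Pola1, Cdc6, Mcm4 and Mcm6, fell, 3 of them by at least 2-fold. No gene passed in the other direction by limma at an adjusted p under 0.05. Over all features, 8.35% were called lower and 7.34% higher, so the share of replication genes called lower is near that of the array as a whole. At an unadjusted p under 0.05, limma had 21 replication genes lower and 1 higher, against 17.0% of all features lower and 16.6% higher (33.6% in either direction). The t-test named in the methods had 2 lower (4.26%, against 12.1% of all features) and 0 higher. A further 15 genes with a negative change and E2f2 with a positive one had an adjusted p under 0.1. Over all 24976 features tested, a further 1230 with a negative and 1320 with a positive change did.

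Both 3MC+TPA arrays lay below both control arrays for 32 of 47 genes (68.1%), against 32.1% of all features. Both lay above both controls for 2 genes (4.26%), against 31.8% of all features, and the groups overlapped for 13. Without scaling between arrays, which lifts the median change of all features to 0.34, the first count was 18 of 47, beside 13.6% of all features. Set against control array 1 alone, the 3MC+TPA mean was lower for 37 of 47 genes with a median of -0.26, and against control array 2 alone for 45 of 47 with a median of -1.12. The size of the difference thus depended on which control array it was measured from, while its sign as a median did not. In RNA of whole cultures, fewer cells in S phase and less RNA of these genes per cell cannot be told apart.

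Some cell type markers also differed between the groups, and those given here were named after their values were seen. Of the 9 fibroblast markers 3 were called, against 15.7% of all features. Dcn, the matrix proteoglycan decorin, had log2 signals of 5.33 and 5.33 in 3MC+TPA cells, against 7.66 and 7.09 in control cells, and fell by 2.04 ± 0.23 (log2, SE; limma, adjusted p = 0.0076). Pdgfrb, a receptor for platelet-derived growth factor, had log2 signals of 4.91 and 4.66 in 3MC+TPA cells, against 5.89 and 5.72 in control cells, and fell by 1.02 ± 0.17 (adjusted p = 0.022). Thy1, a surface glycoprotein of fibroblasts, had log2 signals of 4.78 and 5.02 in 3MC+TPA cells, against 2.98 and 0.86 in control cells, and rose by 2.98 ± 0.69 (adjusted p = 0.047), with the control arrays 2.13 apart. For these 3 genes the groups did not overlap. Dcn and Thy1 were also called when either control array was left out, and not when either 3MC+TPA array was (adjusted p 0.05 on rounding and 0.055 for Dcn, 0.149 and 0.178 for Thy1). Pdgfrb was called with no array left out and in none of the 4 fits that left one out (0.053 to 0.104).

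The summed signal of the fibroblast markers was 1573 and 1631 times the 75th percentile on the 3MC+TPA arrays, against 2079 and 1846 times on the control arrays. Without scaling between arrays it was 1099000 and 1214000 in 3MC+TPA cells, against 1120000 and 1096000 in control cells, and the groups overlapped. The scaled sum of the epithelial markers was 0.277 and 0.306 times in 3MC+TPA cells, against 0.270 and 0.300 times in control cells. That of the leukocyte markers was 0.307 and 0.336 times in 3MC+TPA cells, against 0.236 and 0.284 times in control cells. Without scaling, the epithelial sums were 193.4 and 227.6 in 3MC+TPA cells, against 145.3 and 178.3 in control cells. The leukocyte sums were then 214.7 and 250.4 in 3MC+TPA cells, against 127.2 and 168.9 in control cells. The endothelial markers summed to 0.0967 and 0.104 times in 3MC+TPA cells, against 0.0643 and 0.0400 times in control cells. Of these 4 markers 3 were well above background on no array, and Tek on no control array, so these sums are not measured levels. The epithelial and leukocyte sums also hold markers well above background on no array. Tek, an endothelial receptor kinase, was at least 1.77-fold higher in 3MC+TPA cells, where its control level is a bound, and it entered the test through the 3MC+TPA arrays alone. Of the 5 tested epithelial and leukocyte markers, Cd68 had the smallest adjusted p (0.129, with a log2 change of 1.07). The part of these markers in the replication result was not tested.

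**Figure D2:**
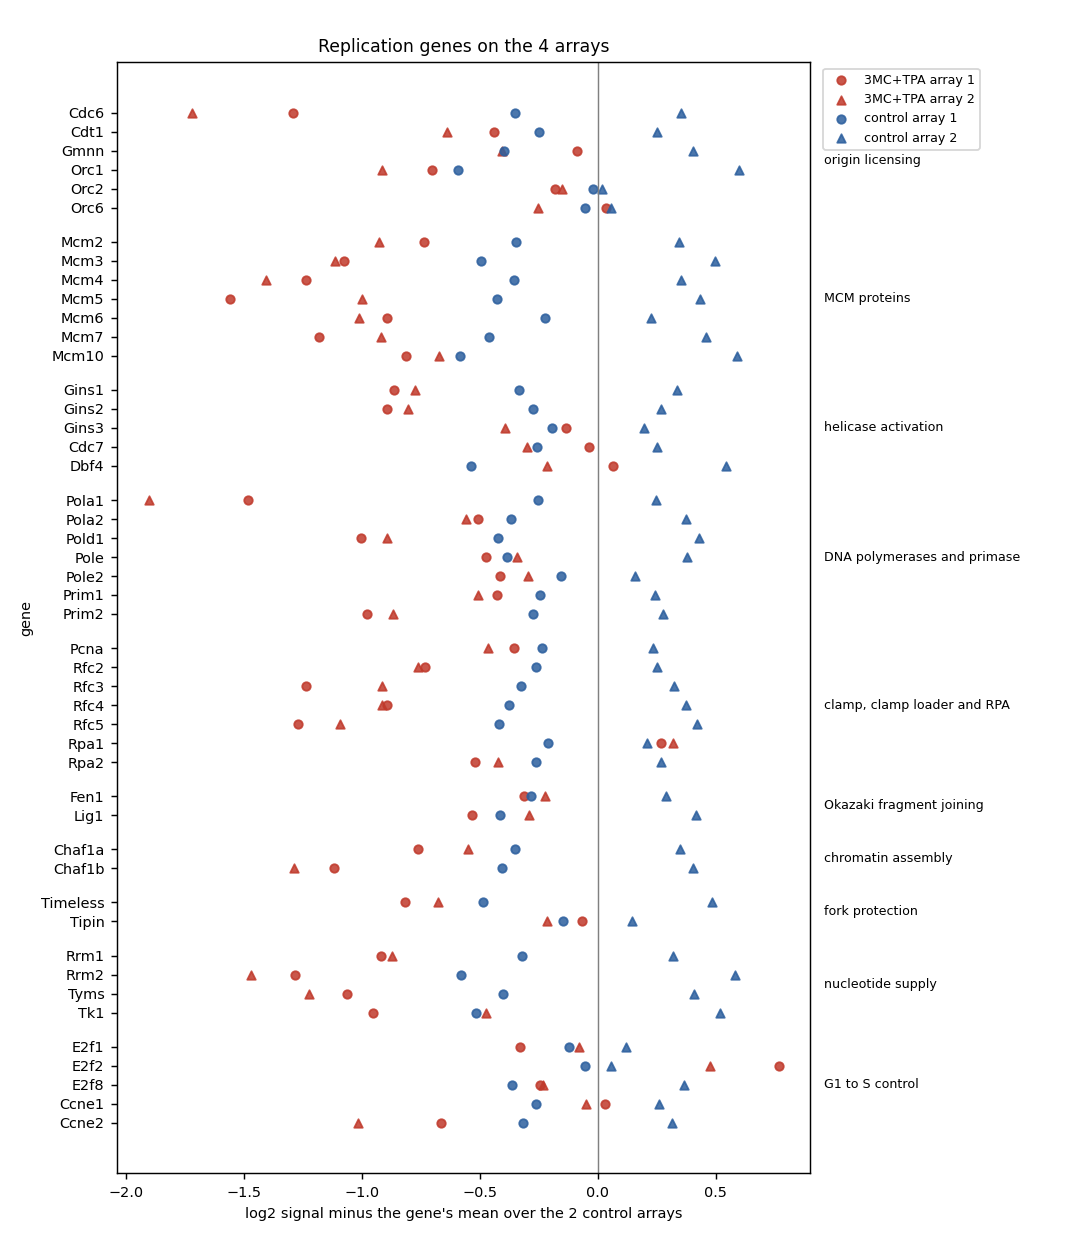
Relative log2 signal of each of the 47 replication genes on the 4 arrays, drawn as the difference from the gene's mean over the 2 control arrays (x axis, log2 units), with genes grouped by role. Red symbols are the 3MC+TPA arrays, blue symbols the control arrays. Blue circles (control array 1) lie left of blue triangles (control array 2) for every gene, and the red symbols lie left of both in 32 of 47.

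Promoter windows of RefSeq (250 bases before to 50 after a transcription start, build GRCm38.p6) were found for 38 of the 47 genes, 45 windows in all. They were searched on both strands for 4 E2F words, TTTCCCGC, TTTGGCGC, TTTCGCGC and TTTGCCGC. At least 1 of them stood in 14 windows of 14 genes, 31.1% of the members' windows, against 744 of 32851 windows of all genes (2.26%). The 24 windows of mitosis genes held it in 4.17% and the 51 windows of other replication genes in 35.3%. The CCAAT word stood in 53.3% of the members' windows, 83.3% of the mitosis genes' and 37.4% of all windows. Shown here, with the E2F word in capitals, are the windows of 3 of the 4 genes that fell (Mcm4 had none) and of E2f2, the gene whose signal was above both controls by the most. A word is a match of letters and says nothing about binding.
Pola1, chrX:93632106-93632405, minus strand: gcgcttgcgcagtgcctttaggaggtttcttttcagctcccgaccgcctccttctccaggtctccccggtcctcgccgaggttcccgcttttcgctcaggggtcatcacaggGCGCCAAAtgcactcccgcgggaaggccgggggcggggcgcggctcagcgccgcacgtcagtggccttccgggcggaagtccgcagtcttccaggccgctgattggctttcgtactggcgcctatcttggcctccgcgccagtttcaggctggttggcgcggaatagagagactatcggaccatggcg
Cdc6, chr11:98907901-98908200, plus strand: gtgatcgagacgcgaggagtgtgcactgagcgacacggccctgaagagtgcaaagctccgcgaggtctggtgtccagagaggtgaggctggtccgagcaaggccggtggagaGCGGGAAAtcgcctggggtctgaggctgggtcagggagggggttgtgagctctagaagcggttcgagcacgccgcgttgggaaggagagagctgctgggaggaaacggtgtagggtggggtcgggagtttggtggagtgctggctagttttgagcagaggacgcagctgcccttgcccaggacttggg
Mcm6, chr1:128359656-128359955, minus strand: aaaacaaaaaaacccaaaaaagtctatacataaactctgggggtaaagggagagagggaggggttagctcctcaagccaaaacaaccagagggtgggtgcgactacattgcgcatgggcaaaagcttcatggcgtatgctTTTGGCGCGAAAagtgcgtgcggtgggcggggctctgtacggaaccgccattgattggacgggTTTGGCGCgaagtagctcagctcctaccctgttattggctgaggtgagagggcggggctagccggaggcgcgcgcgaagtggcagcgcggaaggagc
E2f2, chr4:136172024-136172323, plus strand: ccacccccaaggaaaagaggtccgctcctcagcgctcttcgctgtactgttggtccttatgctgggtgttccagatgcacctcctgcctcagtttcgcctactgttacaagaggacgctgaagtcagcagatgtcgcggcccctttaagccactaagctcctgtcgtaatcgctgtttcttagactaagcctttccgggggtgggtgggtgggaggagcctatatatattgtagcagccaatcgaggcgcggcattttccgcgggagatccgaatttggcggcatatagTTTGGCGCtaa

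In Pola1 and in Cdc6 the word began 138 bases before the start site. Mcm6 held 3 words, beginning 110, 106 and 47 bases before the start, the first of them overlapping the next, and E2f2 held 1 that began 39 bases after it. The 14 genes with an E2F word had a median log2 change of -0.95 (range -1.69 to 0.62), and 11 of them lay below both controls. The 24 genes whose windows held none had a median of -0.50 (range -1.38 to 0.30), with 15 below both controls, and the 9 genes without a window had a median of -0.82, with 6 below both. Over all features, 32.1% lay below both controls. The median gap between the control arrays in these 3 sets was -0.68, -0.70 and -0.63. Genes with and without the word spanned overlapping ranges, and no test was made of the difference between these sets.

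Origin licensing was measured through 6 genes, with a median change of -0.39 (-0.18 against control array 1 and -0.72 against control array 2). Cdc6, the ATPase that helps the origin recognition complex load the helicase, had relative log2 signals of -1.79 and -2.22 in 3MC+TPA cells, against -0.85 and -0.15 in control cells. Both 3MC+TPA arrays lay below both controls, and Cdc6 fell by 1.50 ± 0.30 (log2, SE; adjusted p = 0.032), or 2.84-fold. Its second probe read -2.69 and -2.95 in 3MC+TPA cells and -1.41 and -1.59 in control cells, a log2 change of -1.32, and on this probe control array 1 was the higher of the controls. Cdt1, the loading factor that brings the helicase to the origin, had log2 signals of 2.62 and 2.42 in 3MC+TPA cells, against 2.81 and 3.31 in control cells. It was below both controls, with a change of -0.54 ± 0.22, adjusted p = 0.169. Gmnn, which encodes the Cdt1 inhibitor geminin, had log2 signals of 3.95 and 3.63 in 3MC+TPA cells, against 3.64 and 4.44 in control cells, and its groups overlapped (change -0.25 ± 0.31, adjusted p = 0.617).

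Orc1, the largest subunit of the origin recognition complex, had log2 signals of -3.32 and -3.53 in 3MC+TPA cells, against -3.21 and -2.02 in control cells. These were below both controls, with the gap between the controls wider than that between control array 1 and the 3MC+TPA arrays (change -0.80 ± 0.41, adjusted p = 0.235). Orc2, a core subunit, had log2 signals of 0.97 and 1.00 in 3MC+TPA cells, against 1.13 and 1.17 in control cells by its brightest probe. On this probe values were close within each group, with a small change of -0.17 ± 0.15, adjusted p = 0.473. The second Orc2 probe, well above background on all 4 arrays, read 0.09 and 0.29 in 3MC+TPA cells and 0.09 and 0.74 in control cells. There the groups overlapped and the controls were not close (log2 change -0.23). Orc6, the smallest subunit, had log2 signals of 3.33 and 3.04 in 3MC+TPA cells, against 3.24 and 3.35 in control cells, and its groups overlapped (change -0.11 ± 0.18, adjusted p = 0.707). Orc3, Orc4 and Orc5, subunits that are not among the 47, had positive log2 changes of 0.24, 0.10 and 0.19 by their brightest probes. Orc3 was above both controls, the groups overlapped for Orc4 and Orc5, and none was called (adjusted p from 0.326 to 0.781). By the brightest probes, 4 of the 6 licensing genes among the 47 were below both controls (66.7%, against 32.1% of all features). The test was passed by 1 (16.7%, against 8.35% of all features called lower). Control array 1 minus control array 2 was -0.04 for the brightest Orc2 probe and -0.11 for Orc6, against -1.19 for Orc1.

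Of the 7 MCM genes 2 passed the test (28.6%, against 8.35% of all features called lower). All 7 lay below both control arrays (32.1% of all features did), with a median change of -1.05 (-0.60 against control array 1 and -1.51 against control array 2). Mcm2 to Mcm7 encode the 6 subunits of the helicase ring, and Mcm10 a separate protein that helps to activate it. Mcm4 had relative log2 signals of 3.44 and 3.27 in 3MC+TPA cells, against 4.32 and 5.03 in control cells. It fell by 1.32 ± 0.27 (log2, SE; adjusted p = 0.035), or 2.50-fold. Mcm6 had log2 signals of 4.36 and 4.24 in 3MC+TPA cells, against 5.03 and 5.48 in control cells, and fell by 0.95 ± 0.21 (log2, SE; adjusted p = 0.04), or 1.94-fold. For both genes the lower control array was still above the higher 3MC+TPA array, by more than the 3MC+TPA arrays differed from each other.

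The other 4 ring subunits had negative changes that did not pass the test. Mcm2 had log2 signals of 0.66 and 0.47 in 3MC+TPA cells, against 1.05 and 1.74 in control cells, a change of -0.83 ± 0.27, adjusted p = 0.102. Mcm3 had log2 signals of 0.35 and 0.31 in 3MC+TPA cells, against 0.93 and 1.92 in control cells, a change of -1.09 ± 0.34, adjusted p = 0.095. Mcm5 was the member whose 3MC+TPA arrays lay farthest apart, with log2 signals of 1.24 and 1.80 in 3MC+TPA cells, against 2.37 and 3.23 in control cells and a change of -1.28 ± 0.35, adjusted p = 0.073. All 3 were below both controls on each 3MC+TPA array. Mcm7 had log2 signals of 2.62 and 2.88 in 3MC+TPA cells, against 3.34 and 4.26 in control cells, a change of -1.05 ± 0.34, adjusted p = 0.099. Mcm10 had log2 signals of 1.23 and 1.37 in 3MC+TPA cells, against 1.46 and 2.63 in control cells, close to control array 1 and far below control array 2, with a change of -0.74 ± 0.40, adjusted p = 0.258. For these 5 genes the SD over the 3MC+TPA arrays was 0.03 to 0.40, and over the control arrays 0.49 to 0.83.

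Of 5 genes that activate the loaded helicase, none passed the test by limma. At an unadjusted p under 0.05, 2 were lower by limma, against 17.0% of all features, and 0 by the t-test of the methods. Their median change was -0.26 (-0.07 against control array 1 and -0.62 against control array 2). Gins1, a subunit of the GINS complex that joins the helicase, had log2 signals of -0.45 and -0.36 in 3MC+TPA cells, against 0.08 and 0.75 in control cells, below both controls (change -0.82 ± 0.26, adjusted p = 0.097). Gins2, another subunit, had -0.25 and -0.16 in 3MC+TPA cells, against 0.37 and 0.91 in control cells, also below both (log2 change -0.85 ± 0.23, adjusted p = 0.067). Gins3, a further subunit, had log2 signals of -0.86 and -1.12 in 3MC+TPA cells, against -0.92 and -0.53 in control cells, and its groups overlapped (change -0.26 ± 0.21, adjusted p = 0.424).

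By their brightest probes, the groups overlapped for both subunits of the origin kinase. Cdc7, the catalytic subunit of that kinase, had log2 signals of -1.13 and -1.39 in 3MC+TPA cells, against -1.35 and -0.84 in control cells by its brightest probe (change -0.17 ± 0.23, adjusted p = 0.663). Its second probe read -3.94 and -4.32 in 3MC+TPA cells, against -3.89 and -3.28 in control cells, below both controls, a log2 change of -0.55. The third, well above background on no array, gives no direction. Dbf4, the regulatory subunit, had log2 signals of -0.14 and -0.42 in 3MC+TPA cells, against -0.74 and 0.34 in control cells (change -0.08 ± 0.38, adjusted p = 0.913). The 3MC+TPA values of Dbf4 lay between the 2 control values, and those of the brightest Cdc7 probe between and just below them.

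All 7 polymerase and primase genes among the 47 had a negative change, 6 of them below both controls (85.7%, against 32.1% of all features). Their median change was -0.54 (-0.22 against control array 1 and -0.91 against control array 2). Pola1, the catalytic subunit of polymerase alpha, which starts each new strand, had relative log2 signals of 0.10 and -0.32 in 3MC+TPA cells, against 1.33 and 1.83 in control cells. It fell by 1.69 ± 0.25 (log2, SE; adjusted p = 0.015), or 3.23-fold, the largest change of the 47 genes. Both 3MC+TPA arrays lay below the lower control array by more than the 2 controls differed from each other. Pola2, the regulatory subunit of the same polymerase, had log2 signals of -1.71 and -1.76 in 3MC+TPA cells, against -1.57 and -0.83 in control cells, just below control array 1 (change -0.54 ± 0.28, adjusted p = 0.24). Pola1 and Pola2, which belong to 1 complex, thus differed in the size of their change, a difference that was not tested.

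Prim1, the catalytic primase subunit that lays down the RNA primer, had log2 signals of 2.33 and 2.25 in 3MC+TPA cells, against 2.51 and 3.00 in control cells (change -0.46 ± 0.21, adjusted p = 0.198). Prim2, the large primase subunit, had log2 signals of 0.85 and 0.96 in 3MC+TPA cells, against 1.55 and 2.10 in control cells (change -0.92 ± 0.23, adjusted p = 0.058). Both were below both controls, Prim2 by the wider distance. Pold1, the catalytic subunit of the lagging-strand polymerase delta, had log2 signals of 1.58 and 1.69 in 3MC+TPA cells, against 2.16 and 3.01 in control cells, below both controls (change -0.95 ± 0.31, adjusted p = 0.101). Pole, the catalytic subunit of the leading-strand polymerase epsilon, had log2 signals of 0.09 and 0.22 in 3MC+TPA cells, against 0.18 and 0.94 in control cells, so that control array 1 lay between the 2 3MC+TPA arrays (change -0.41 ± 0.28, adjusted p = 0.367). Pole2, its second subunit, had log2 signals of -1.13 and -1.01 in 3MC+TPA cells, against -0.87 and -0.56 in control cells, slightly below both controls (change -0.35 ± 0.18, adjusted p = 0.238). Outside the 47 genes, Pold2, Pold3 and Pole3 had log2 changes of -0.35, -0.11 and -0.35, and Pold4 one of 0.16. Of these subunits Pold2 lay below both controls and Pold4 above both, the others overlapped, and none was called.

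Among 7 genes of the clamp, its loader and the single-strand binding protein, none passed the test by limma. At an unadjusted p under 0.05, 4 were lower by limma, against 17.0% of all features, and 0 by the methods' t-test. The median change was -0.75 (-0.49 against control array 1 and -1.0 against control array 2). Pcna, the sliding clamp that holds polymerases on DNA, had log2 signals of 4.65 and 4.54 in 3MC+TPA cells, against 4.77 and 5.24 in control cells, below both controls by a small margin (change -0.41 ± 0.21, adjusted p = 0.247). The 4 RFC subunits among the 47 genes, which load the clamp onto DNA, had larger negative changes. Rfc2 had log2 signals of 3.98 and 3.95 in 3MC+TPA cells, against 4.45 and 4.96 in control cells (change -0.75 ± 0.22, adjusted p = 0.081). Rfc3 had log2 signals of -1.43 and -1.11 in 3MC+TPA cells, against -0.52 and 0.13 in control cells (change -1.08 ± 0.27, adjusted p = 0.058). Rfc4 and Rfc5 followed: all 4 of these loader genes were below both controls (32.1% of all features were), at an adjusted p between 0.058 and 0.089. Rfc4 had log2 signals of 1.60 and 1.58 in 3MC+TPA cells, against 2.12 and 2.87 in control cells (change -0.91 ± 0.28, adjusted p = 0.089). Rfc5 had log2 signals of 1.21 and 1.39 in 3MC+TPA cells, against 2.06 and 2.90 in control cells (change -1.18 ± 0.31, adjusted p = 0.064). Rfc1, a further loader subunit that is not among the 47, went the other way. Its log2 signals were 2.82 and 2.91 in 3MC+TPA cells, against 2.68 and 2.66 in control cells. These were above both controls (change 0.195 ± 0.149, adjusted p = 0.414).

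RPA, which coats single-stranded DNA, was read through 2 subunits among the 47 genes. Rpa1, the large subunit, had log2 signals of 2.78 and 2.83 in 3MC+TPA cells, against 2.30 and 2.72 in control cells by its brightest probe, above both controls (change 0.30 ± 0.20, adjusted p = 0.348). Its 2 other probes had log2 changes of -0.13 and -0.09, so the gene's direction depends on the probe. Rpa2, the middle subunit, had log2 signals of -0.33 and -0.23 in 3MC+TPA cells, against -0.07 and 0.46 in control cells, below both controls (change -0.47 ± 0.22, adjusted p = 0.208). Rpa3, a further subunit that is not among the 47, had log2 signals of 2.44 and 2.19 in 3MC+TPA cells, against 2.45 and 2.50 in control cells. It was just below both controls (change -0.16 ± 0.17, adjusted p = 0.543). None of these subunits passed the test.

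Fen1, the nuclease that trims Okazaki fragments, had log2 signals of 1.11 and 1.20 in 3MC+TPA cells, against 1.14 and 1.71 in control cells (change -0.26 ± 0.23, adjusted p = 0.475). Lig1, the ligase that seals them, had log2 signals of 3.10 and 3.34 in 3MC+TPA cells, against 3.22 and 4.05 in control cells (change -0.41 ± 0.31, adjusted p = 0.4). In both genes control array 1 lay between the 3MC+TPA arrays and control array 2 stood apart above them, and the median change of the pair was 0.01 against control array 1 and -0.69 against control array 2.

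Chaf1a, the large subunit of the factor that places histones behind the fork, had log2 signals of 0.92 and 1.13 in 3MC+TPA cells, against 1.33 and 2.03 in control cells (change -0.66 ± 0.27, adjusted p = 0.163). Chaf1b, its middle subunit, had log2 signals of 0.92 and 0.75 in 3MC+TPA cells, against 1.63 and 2.44 in control cells (change -1.20 ± 0.30, adjusted p = 0.057). Both were below both controls, and the adjusted p of Chaf1b was the smallest among the genes that did not pass. Timeless, which steadies a stalled fork, had log2 signals of -0.59 and -0.45 in 3MC+TPA cells, against -0.26 and 0.71 in control cells, below both controls (change -0.75 ± 0.34, adjusted p = 0.196). Tipin, its partner, had log2 signals of 3.04 and 2.89 in 3MC+TPA cells, against 2.96 and 3.25 in control cells, overlapping with the controls (change -0.15 ± 0.18, adjusted p = 0.615).

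Nucleotide supply genes had a median change of -1.02 (-0.66 against control array 1 and -1.39 against control array 2). None of the 4 passed the test by limma, with 3 lower at an unadjusted p under 0.05, against 17.0% of all features, and 0 by the methods' t-test. Rrm1, the large subunit of ribonucleotide reductase, which makes deoxynucleotides, had log2 signals of 2.75 and 2.80 in 3MC+TPA cells, against 3.35 and 3.99 in control cells (change -0.90 ± 0.25, adjusted p = 0.074). Rrm2, its S-phase subunit, had log2 signals of -0.07 and -0.26 in 3MC+TPA cells, against 0.63 and 1.79 in control cells (change -1.38 ± 0.40, adjusted p = 0.079). Both were below both controls, and the second Rrm2 probe had a log2 change of -1.45. Tyms, the thymidylate synthase, had log2 signals of 2.78 and 2.62 in 3MC+TPA cells, against 3.44 and 4.25 in control cells (change -1.15 ± 0.30, adjusted p = 0.063), also below both controls, and its second probe had a change of -1.13. Tk1, the thymidine kinase of the salvage route, had log2 signals of 2.49 and 2.97 in 3MC+TPA cells, against 2.93 and 3.96 in control cells, and its groups overlapped (change -0.71 ± 0.38, adjusted p = 0.259). Control array 1 minus control array 2 was -1.16 for Rrm2 and -1.03 for Tk1.

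The 5 regulators of the G1 to S step gave a mixed picture, with a median change of -0.20 (0.13 against control array 1 and -0.33 against control array 2). None passed the test by limma. At an unadjusted p under 0.05, limma had 1 lower and 1 higher, against 17.0% and 16.6% of all features, and the methods' t-test 0. E2f1, an activator of S-phase genes, had log2 signals of 0.57 and 0.82 in 3MC+TPA cells, against 0.78 and 1.02 in control cells (change -0.20 ± 0.18, adjusted p = 0.485), and its second probe had a change of 0.11. E2f2, another activator, had log2 signals of -0.73 and -1.02 in 3MC+TPA cells, against -1.55 and -1.44 in control cells. Both 3MC+TPA arrays were above both controls, and the controls lay close together, at a change of 0.62 ± 0.17, adjusted p = 0.076. E2f8, a repressor of the same targets, had log2 signals of -1.71 and -1.70 in 3MC+TPA cells, against -1.83 and -1.10 in control cells, nearly equal on the 3MC+TPA arrays and lying between the controls (change -0.24 ± 0.27, adjusted p = 0.589).

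Ccne1, cyclin E1, which activates Cdk2 at the G1 to S step, had log2 signals of 2.59 and 2.51 in 3MC+TPA cells, against 2.30 and 2.82 in control cells (change -0.01 ± 0.22, adjusted p = 0.974), and its second probe had a change of 0.12. Ccne2, cyclin E2, had log2 signals of -2.74 and -3.09 in 3MC+TPA cells, against -2.39 and -1.76 in control cells, below both controls (change -0.84 ± 0.27, adjusted p = 0.1). Its second probe had a log2 change of -1.03 with an adjusted p of 0.047 in the fit over all probes. The cyclin E genes therefore differed in their values, Ccne1 with groups that overlapped and Ccne2 with groups that did not, and the difference between them was not tested.

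**Figure D3:**
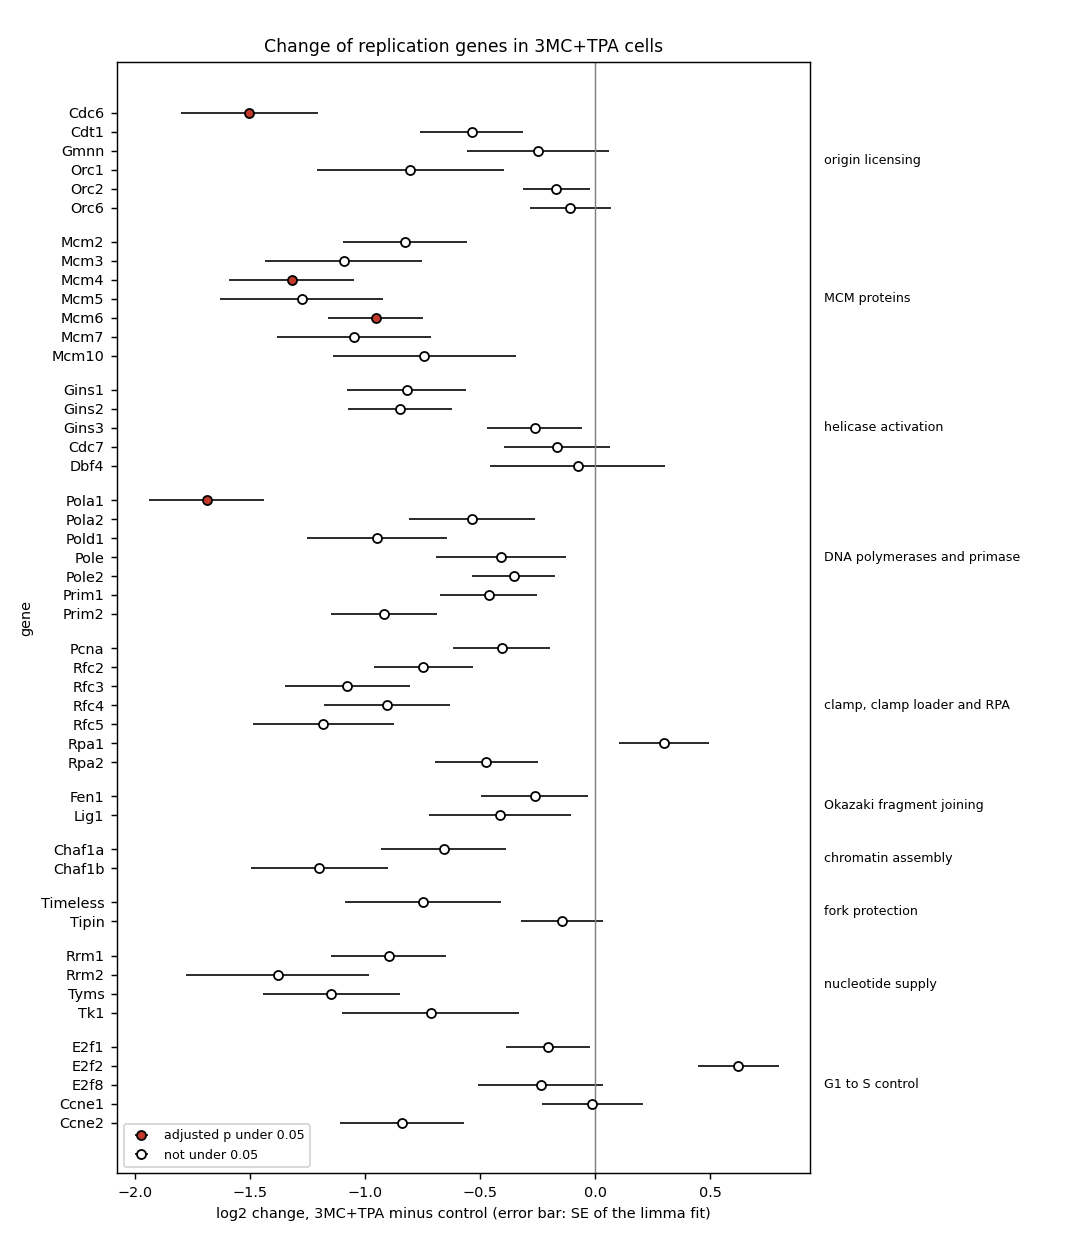
Log2 change of each of the 47 replication genes, 3MC+TPA minus control (x axis, points; error bars are the standard error of the limma fit), grouped by role. The 4 filled points, Cdc6, Mcm4, Mcm6 and Pola1, have an adjusted p under 0.05. The other points are open and range from -1.38 (Rrm2) to 0.62 (E2f2).

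The 4 calls rested to a different degree on single arrays. Pola1 was also called without control array 1 (limma, adjusted p = 0.016) and without control array 2 (0.04), and not without 3MC+TPA array 1 (0.05, on rounding) or 3MC+TPA array 2 (0.081). Over the alternatives with an adjusted p, that of Pola1 ranged from 0.005 to 0.195, and it was called in 13 of 17 alternatives. Pola1, Mcm4 and Mcm6 have 1 probe each, so the alternatives that change the probe reuse their values. The values deposited by the authors also nearly equal those used. Calls under such alternatives were almost fixed in advance and add no support. Without control array 2, Cdc6, Mcm4 and Mcm6 had log2 changes of -1.15, -0.96 and -0.73 and adjusted p-values of 0.07, 0.064 and 0.112. Cdc6 and Mcm4 were called in 10 of 17 alternatives (adjusted p from 0.012 to 0.242 and from 0.012 to 0.244), and Mcm6 in 8 (from 0.013 to 0.225). The counts include the unadjusted t-test, which is 1 of the 17, and the ranges of adjusted p leave it out. Without control array 1, 24 replication genes were called lower (51.1%, against 7.17% of all features in the same fit), and without control array 2 only Pola1 (2.13%, against 5.44%). Without 3MC+TPA array 1 or 2 none was, against 3.87% and 3.12% of all features. In these fits the single array is taken to vary like the arrays of the other group.

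**Figure D4:**
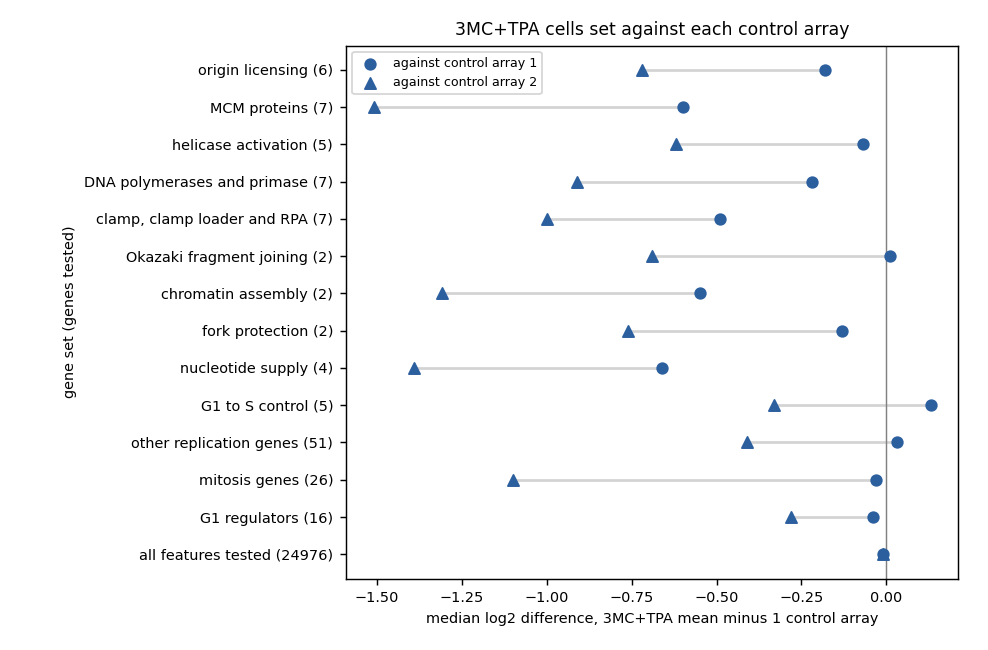
Median log2 difference of each gene set, the mean of the 3MC+TPA arrays minus control array 1 (circles) or control array 2 (triangles), in log2 units. Numbers in brackets are genes tested. The MCM proteins are at -0.60 and -1.51 and the nucleotide supply genes at -0.66 and -1.39, while the mitosis genes are at -0.03 and -1.10 and all features at -0.01 for both.

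A further 51 genes of the replication machinery that are not among the 47 were all tested. Of these 4 were called (7.84%, against 15.7% of all features in either direction), Dscc1 and Wdhd1 lower and E2f7 and Cdk2 higher, and Cdk2 entered the test through the 3MC+TPA arrays alone. With only probes well above background on all 4 arrays, 50 were tested, 5 of them called lower and 1 higher. In that fit 8.73% of all features were called lower and 8.19% higher. The median change of the 51 was -0.17 (0.03 against control array 1 and -0.41 against control array 2). Dscc1, a subunit of the alternative clamp loader, had log2 signals of -0.64 and -0.70 in 3MC+TPA cells, against 0.82 and 1.46 in control cells, and fell by 1.81 ± 0.25 (log2, SE; adjusted p = 0.013), with -1.96 by its second probe. Wdhd1, which ties polymerase alpha to the helicase, had log2 signals of -1.11 and -1.42 in 3MC+TPA cells, against -0.16 and 0.32 in control cells, and fell by 1.34 ± 0.23 (log2, SE; adjusted p = 0.023), with -1.12 by its second probe. In both, the 3MC+TPA arrays lay below both controls, as for Pola1. E2f7, a repressor related to E2f8, had log2 signals of 0.27 and 0.49 in 3MC+TPA cells, against -0.52 and -0.29 in control cells, and rose by 0.78 ± 0.18 (log2, SE; adjusted p = 0.044).

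Cdk2, the kinase partner of cyclin E, was not well above background on either control array by its brightest probe. Its relative log2 signals were -3.69 and -3.77 in 3MC+TPA cells, against -4.88 and -5.10 in control cells, at least 2.01-fold higher in the 3MC+TPA cells when the control level is taken as the lowest signal among probes well above background or the probe's own, whichever is higher. The filter took in this probe for its 3MC+TPA signal, so its call is no support for a rise. The second probe, well above background on all 4 arrays, had a log2 change of 0.40. Ccna2, cyclin A2 of S and G2 phase, had log2 signals of 2.22 and 2.44 in 3MC+TPA cells, against 2.04 and 3.02 in control cells (change -0.20 ± 0.35, adjusted p = 0.724), overlapping with the controls. Pole4, a small polymerase epsilon subunit, read 9.61 on 3MC+TPA array 1 by its brightest probe, against 2.67 on 3MC+TPA array 2 and 2.36 and 2.50 on the control arrays. Its 2 other probes read 1.84 and 0.80 on 3MC+TPA array 1, near their values on array 2 (1.69 and 0.66).

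The median gap, control array 1 minus control array 2, was -0.67 in the replication genes and -1.07 in 26 mitosis genes. All 26 were lower on control array 1, 25 of them by more than 0.5. The change of the mitosis genes between groups had a median of -0.56, with -0.03 against control array 1 and -1.10 against control array 2. None of the 26 was called by limma, with 1 lower at an unadjusted p under 0.05, against 17.0% of all features, and 0 by the methods' t-test. Cdk1, the mitotic kinase, had log2 signals of 2.05 and 1.85 in 3MC+TPA cells, against 2.34 and 3.18 in control cells (change -0.81 ± 0.31, adjusted p = 0.138). Mki67, the proliferation marker Ki-67, had log2 signals of 3.63 and 3.71 in 3MC+TPA cells, against 3.53 and 4.42 in control cells (change -0.30 ± 0.31, adjusted p = 0.549). Both 3MC+TPA arrays lay below both controls in 32 of 47 replication genes and in 9 of 26 mitosis genes (34.6%), beside 32.1% of all features. No test was made of the difference between these gene sets.

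Of 19 regulators of G1, 16 were tested (Cdkn1c, Cdkn2a and Cdkn2b were not well above background on both arrays of a group). None was called by limma, with 3 lower and 1 higher at an unadjusted p under 0.05, against 17.0% and 16.6% of all features. The methods' t-test had 1 lower at an unadjusted p under 0.05, against 12.1% of all features. Their median change was -0.20 and their median gap between the control arrays -0.19. Cdkn1a, the CDK inhibitor p21, had log2 signals of 3.61 and 4.11 in 3MC+TPA cells, against 4.06 and 4.68 in control cells (change -0.51 ± 0.29, adjusted p = 0.28), and its groups overlapped. The part of the control gap in the replication result was not tested beyond the values against each control array given above.

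**Figure D5:**
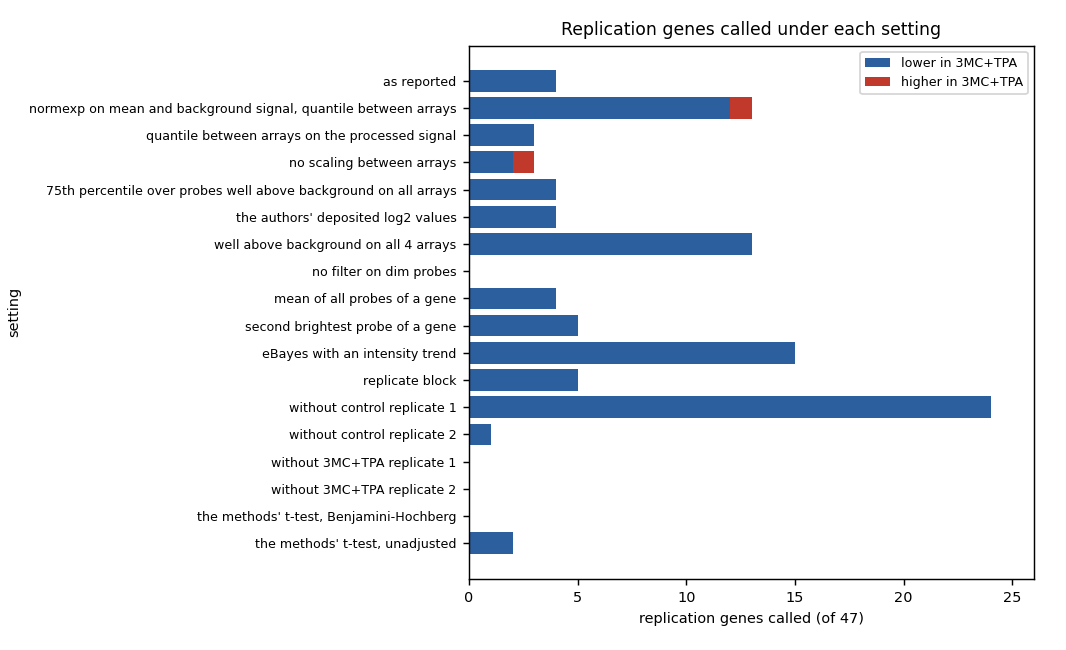
Number of the 47 replication genes called at an adjusted p under 0.05 (x axis; for the last bar an unadjusted p), lower (blue) or higher (red) in 3MC+TPA cells, as reported and under each alternative setting. The count is 4 as reported and runs from 0 to 24. It was 24 (51.1%) without control array 1, where 7.17% of all features were called lower, and 0 without either 3MC+TPA array.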

How the data were processed

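RNA of 2 3MC+TPA and 2 control samples was read in 1 colour (Cy3) on a custom mouse array. Per the file headers, the intensity values come from Feature Extraction 10.7.3.1, and the processed signal among them is corrected for background. The table of log2 values deposited by the authors equals log2 of this signal minus the array's 75th percentile, within 0.01 for at least 61236 of 61248 probes on each array, is not gene-centred and has column medians of -4.39 and -4.35 (3MC+TPA) and -4.29 and -4.31 (control).

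The values used here are log2 processed signals minus each array's 75th percentile (signals of 698.5 and 744.6 on the 3MC+TPA arrays, 538.9 and 594.0 on the control arrays) without the 1319 control spots and outlier spots (31 and 68, against 42 and 20). No spot was saturated. A feature is a gene name read by its brightest probe, tested when that probe was well above background on both arrays of a group (24976 of 50090). Groups, taken from the titles, were compared with limma 3.58.1 in R 4.3.3, 2-sided, with Benjamini-Hochberg adjustment and a threshold of 0.05. With 2 arrays a group, their number limits the precision. Symbols were updated through a RefSeq gene table (28136 of 61307 probes matched).

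The genes and lists were chosen with earlier results of these data known. Named were all 47 genes, each probe of those called or with probes that disagree, the called genes of the other replication, mitosis and G1 lists (up to 5 a list by size of change), and Mki67, Ccna2, Cdk1 and Cdkn1a. Orc3, Orc4, Orc5, Rfc1, Rpa3, Pold2, Pold3, Pold4, Pole3, Pole4, the cell type markers and the second probes of other genes were named after the values were seen. Alternatives varied the background correction, scaling, filter, probe, variance model and test, left out each array or took the replicate number as a block. The counts of genes below both controls or lower on control array 1 were also rerun under alternatives chosen after seeing the data.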

Additional observations from a re-analysis of the deposited data

How the results depend on the processing

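Under no alternative did a called replication gene change sign. The 47 genes had 4 calls as reported, all lower (8.51%, against 8.35% of all features). They had 13 with normexp and quantile scaling (12 lower, 25.5% against 9.2%), 13 lower when a probe had to be well above background on all 4 arrays (27.7% against 8.73%) and 15 lower with an intensity trend in the variance model (31.9% against 11.1%). They had 0 without the filter on dim probes (1.16% of all features lower), and 0 or 2 by the methods' t-test with or without Benjamini-Hochberg adjustment (0.0482% and 12.1%). Leaving out each array gave 0 to 24 calls, with 24 without control array 1, 1 without control array 2 and 0 without either 3MC+TPA array. The 51 other replication genes had 4 calls as reported, beside 15.7% of all features in either direction. They had 7 with normexp (all features: 9.2% lower, 10.4% higher) and 7 with the trend (11.1% lower, 9.57% higher). They had 0 without the filter (1.16% lower, 0.685% higher) and 0 by the adjusted t-test (0.0482% lower, 0.0361% higher). Over all features, 3917 calls became 6688 without scaling (79.1% of them higher, against 46.8%), 926 without the filter, 21 by the adjusted t-test and 1188 to 3281 with an array left out. The cause was not tested, apart from what fewer arrays or more features tested imply.

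The median change of -0.74 was -0.39 without scaling, where the median of all features was 0.34, and -1.12 to -0.26 with an array left out. The count below both controls, 32, was 18 without scaling and 31 to 33 under the other alternatives, which were chosen after seeing the data. Of the 45 negative changes, 33 stayed negative under every alternative, 11 turned positive without scaling and 8 without control array 2. The gap between the control arrays, -0.67, lay between -0.81 and -0.60 in every scaling, filter and probe setting. Array numbers are not shown to pair samples (the array 1 minus array 2 differences of the groups had r = 0.00154 over 24919 features). With the replicate block 5 replication genes were called lower (10.6%, against 7.54% of all features), 2 of them among the 4, and 3407 features in all. Signal over background limited 1 of 63 probes.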
